A study of Mus musculus with 2 samples.

Results

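The 10 genes described here encode the proteins that make, store, take back and break down catecholamines. They were listed by name as a pathway, with earlier results of these data known: Th, Ddc, Dbh and Pnmt for synthesis, Slc18a1 and Slc18a2 for vesicle loading, Slc6a2 for reuptake, Maoa for breakdown, and Chga and Chgb for the granules. All 10 were measured, out of 19938 genes named on the array, and each was represented by a single transcript cluster, the array's unit for the probes of a gene. The cells came from mouse hearts at stage E14.5 on a C57BL/6 background. One sample was Adam19+/+; Wnt1-Cre; R26tdTomato/+ and the other Adam19-/-; Wnt1-Cre; R26tdTomato/+, so that both carried the same driver and reporter and differed in Adam19, the gene of a membrane-anchored metalloprotease. Wnt1-Cre switches on tdTomato in the neural crest and its descendants, and the red cells of digested hearts were sorted. The Adam19 genotype is not written as a conditional allele, so it applies to the embryo and not only to the sorted cells. The sources used here give neither the number of embryos behind a sample nor their sex.

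Noradrenaline is made in postganglionic sympathetic neurons and chromaffin cells, which descend from the neural crest, and the crest also gives rise to the autonomic neurons of the heart. Tyrosine is hydroxylated to dopa by tyrosine hydroxylase, decarboxylated to dopamine, carried into vesicles and there converted to noradrenaline by dopamine beta-hydroxylase. A further enzyme, found in adrenaline-producing cells, methylates it to adrenaline. After release, noradrenaline is taken back by a plasma membrane transporter and then reloaded into vesicles or oxidised by monoamine oxidase.

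Adam19 itself, which checks the labels, had a log2 signal of 11.62 in the Adam19+/+ sample and 9.77 in the Adam19-/- sample, a difference of -1.85. The sources used here do not say whether its probes lie in the deleted part. The medians of all clusters were 7.49 and 7.52.

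In Adam19-/- cells 8 of the 10 genes were higher, by 0.28 to 0.46 on the log2 scale, and the differences of the others, Pnmt and Chgb, were 0.00 when rounded to the second decimal. The median difference, Adam19-/- minus Adam19+/+, was 0.37 over the 10 genes, or 1.30-fold, against 0.01 over all 19938 genes. There was 1 array per genotype (n = 1), so no difference here has a replicate check or a test, and each describes these 2 samples alone. A gene was counted as higher or lower past a threshold when one array's linear signal exceeded the other's by at least 25%, which is 0.32 on the log2 scale. The genes just inside and just outside it were Chga and Slc18a1. This threshold was passed upwards by 7 of the 10 genes and by 2.72% of all genes. None of the 10 was lower by as much, as 1.03% of all genes were. A higher value of any size was found for 51.7% of all genes. An excess of at least 10% was found for 8 of the 10 genes and 17.2% of all genes, whereas an excess of 50% was found for none of the 10 and 0.155% of all genes. The 8 higher genes thus differed by similar and small amounts.

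A floor for bright genes was set at 8.01, the median over all genes of the mean log2 signal, and 10122 genes exceeded it on at least 1 array. Of the catecholamine genes 8 did so, while Pnmt and Slc18a1 stayed below it on both arrays. Among the genes above the floor 1.97% were higher by at least 25%, the median difference was 0.04 and the central 95% of differences ran from -0.20 to 0.30. The 7 genes counted as higher all lay above the floor. Of markers for derivatives of the crest, 12 of 12 pan-neuronal, 7 of 10 cholinergic, 7 of 8 glial and 8 of 8 smooth muscle markers lay above the floor. So did 11 of 13 cardiomyocyte and 4 of 14 leukocyte markers, of cells that the reporter is not thought to mark. Among these, the leukocyte markers C1qb and Fcer1g and the cardiomyocyte marker Myh6 passed the floor on the Adam19-/- array alone. The floor was passed by 10122 of all 19938 genes, so such counts alone do not show which cells were present.

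**Figure D1:**
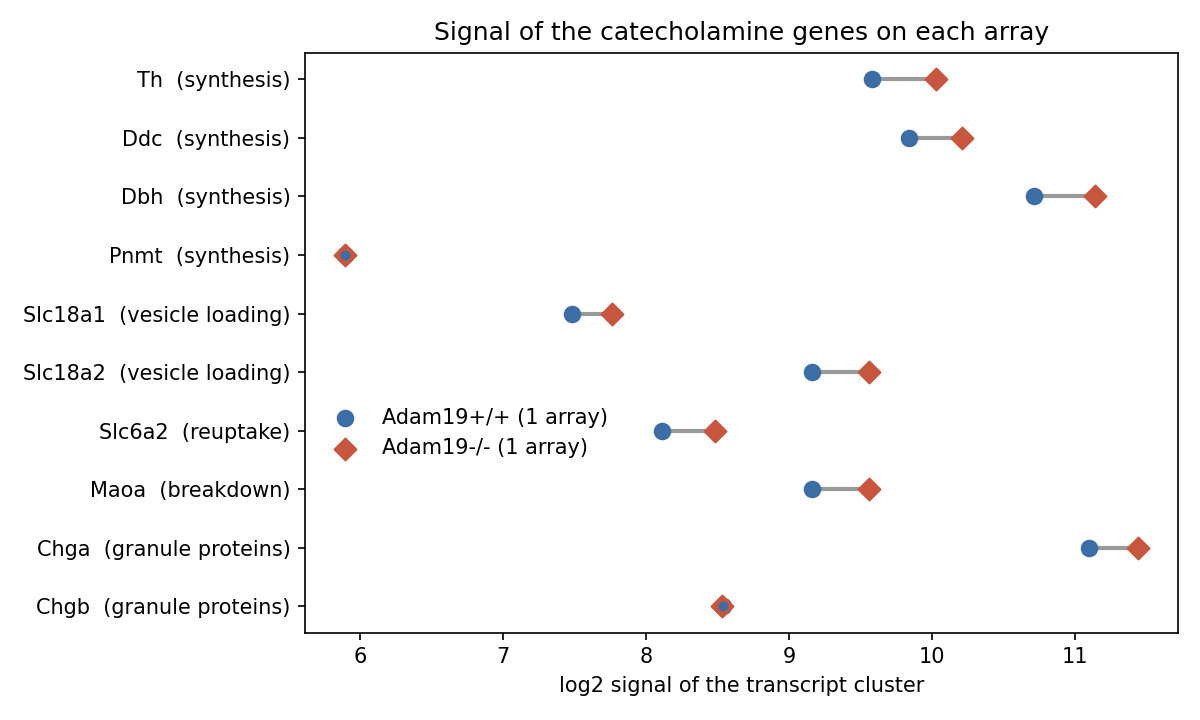
Log2 signal of each catecholamine gene (horizontal axis) on the Adam19+/+ array (circles) and the Adam19-/- array (diamonds), with its role in brackets. The diamonds lie to the right of the circles for 8 genes and on them for Pnmt and Chgb, and positions of different genes cannot be compared because probes differ in brightness.

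The genes of the first 3 steps of synthesis were all higher. Th encodes tyrosine hydroxylase, the rate-limiting enzyme, and its log2 signal was 9.58 in Adam19+/+ and 10.03 in Adam19-/- cells. The difference of 0.46, or 1.37-fold, was the largest of the 10 genes and ranked 132nd among the increases of all 19938 genes. Ddc, the aromatic amino acid decarboxylase that forms dopamine, was at 9.84 and 10.21, a difference of 0.38 or 1.30-fold. Dbh, the vesicular enzyme that forms noradrenaline, was at 10.71 and 11.14, a difference of 0.43 or 1.34-fold, and ranked 178th. These 3 genes lay within 0.08 of each other in difference. For comparison, 583 genes had at least 2 clusters above the floor, and the differences given by the clusters of such a gene spanned a median of 0.07, with a 95th percentile of 0.28. The order of Th, Dbh and Ddc is therefore not resolved by these arrays.

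Pnmt, the gene of the enzyme that makes adrenaline, was at 5.89 on both arrays and the deposited values were identical to the last digit. Such identity was common among dim genes. It held for 27.7% of the genes not above the floor and for 1.07% of those above it, and 14.2% of all genes. The end of the pathway thus gave no measurable difference, at a signal where equal values were frequent.

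The bases before the annotated start of Th and Dbh are shown because the 2 genes had the largest differences. They are the RefSeq sequences of GRCm38.p6, at chr7:142899996-142900095 on the minus strand for Th and chr2:27165337-27165506 on the plus strand for Dbh, and both end at the last base before the start. In Th the capitals mark the cyclic AMP response element TGACGTCA, bound by CREB-family factors. In Dbh they mark the homeodomain core ATTA, searched on both strands, a core of sites bound by homeodomain proteins such as the noradrenergic factor Phox2a.
Th: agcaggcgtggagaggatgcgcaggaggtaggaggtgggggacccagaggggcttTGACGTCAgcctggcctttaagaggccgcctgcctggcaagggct
Dbh: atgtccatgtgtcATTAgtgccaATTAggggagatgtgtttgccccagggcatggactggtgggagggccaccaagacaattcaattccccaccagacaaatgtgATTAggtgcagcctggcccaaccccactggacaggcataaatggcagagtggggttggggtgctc
The element in Th began 45 bases before the start, and the cores in Dbh began 157, 147 and 65 bases before it.

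Promoter windows of 250 bases before to 50 after the start were at hand for 7 of the 10 genes, with 2 windows for Ddc and 8 in all. The whole element TGACGTCA, which reads the same on both strands, was found in the windows of Th, Slc18a2 and Chgb and in 1.79% of 32851 RefSeq windows. In Slc18a2 it began 4 bases before the start and ran across it. Its first 5 letters, TGACG, which are part of the whole element, were found on either strand in 6 of the 8 windows and in 20.8% of all. ATTA was found in 6 windows, including both of Ddc, and in 58.0% of all. The other motifs searched, on both strands, were GATAA in 2 of the 8 and 25.4% of all windows, CANNTG in 6 and 72.3%, GGGCGG in 5 and 35.7%, and TATAAA in 2 and 13.6%. These matches describe the letters of the windows and not bound sites. The whole element was present in Th and Slc18a2, which were higher, and in Chgb, which was not. Chgb was the only gene that was not higher with a window at hand, and a link between element and difference was not tested.

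Both vesicular monoamine transporters had higher signals in Adam19-/- cells. Slc18a2 encodes VMAT2, which loads monoamines into the vesicles of neurons, and was at 9.16 on the Adam19+/+ array and at 9.56 on the Adam19-/- array, 0.40 or 1.32-fold higher. Slc18a1 encodes VMAT1, the form typical of chromaffin and other endocrine cells, with signals of 7.48 and 7.76 and a value 0.28 or 1.22-fold higher. It just missed the threshold of 25%, and it was dim on both arrays. The 2 transporters differed from each other by 0.12, less than the 0.28 that marks the 95th percentile between clusters of a gene.

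Slc6a2 and Maoa, the listed genes for the fate of released noradrenaline, were higher as well. Slc6a2, the noradrenaline transporter of the plasma membrane, was at 8.11 and 8.48, a difference of 0.37 or 1.29-fold. Maoa, the mitochondrial oxidase that deaminates noradrenaline and serotonin, was at 9.16 and 9.56, a difference of 0.41 or 1.33-fold. Slc6a2 and Maoa thus differed in the same direction and by about as much as Th, Ddc and Dbh. The 6 other measured enzymes of breakdown, given below, had a median difference of 0.04. Maoa lies on the X chromosome, and the samples differed in Y-linked transcripts, as given below. The 342 X-linked genes above the floor had a median difference of 0.06, and 18 of them, or 5.26%, were higher by at least 25%, against 1.97% of all genes above the floor. The part of this in the value of Maoa was not tested. Maoa also is expressed outside neurons, so its signal in sorted cells of several kinds is not specific to catecholamine cells.

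The 2 chromogranins, acidic proteins that are packed with catecholamines in dense-core granules, did not share a difference. Chga was at 11.10 and 11.44, which is 0.34 or 1.26-fold higher and just past the threshold. Chgb was at 8.54 and 8.53, a ratio of 0.998, although it was above the floor on both arrays. The gap between them was 0.34, beyond the 95th percentile of 0.28 between clusters of a gene. That percentile compares probes on the same 2 samples and holds no variation between samples of a genotype. With 1 cluster for each there is no second measurement of either on these arrays. The 100 bases before their starts are shown for comparison with Th, at chr12:102554841-102554940 for Chga and chr2:132781542-132781641 for Chgb, both on the plus strand of GRCm38.p6. Capitals mark TGACG, or on the other strand CGTCA, which overlap in the whole element.
Chga: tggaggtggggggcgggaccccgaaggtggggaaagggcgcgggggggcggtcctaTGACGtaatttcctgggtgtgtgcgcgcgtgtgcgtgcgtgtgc
Chgb: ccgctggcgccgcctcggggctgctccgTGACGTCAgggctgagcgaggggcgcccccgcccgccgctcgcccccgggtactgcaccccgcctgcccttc
Chga held TGACG alone, 44 bases before its start, and Chgb the whole element, beginning 72 bases before its start.

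**Figure D2:**
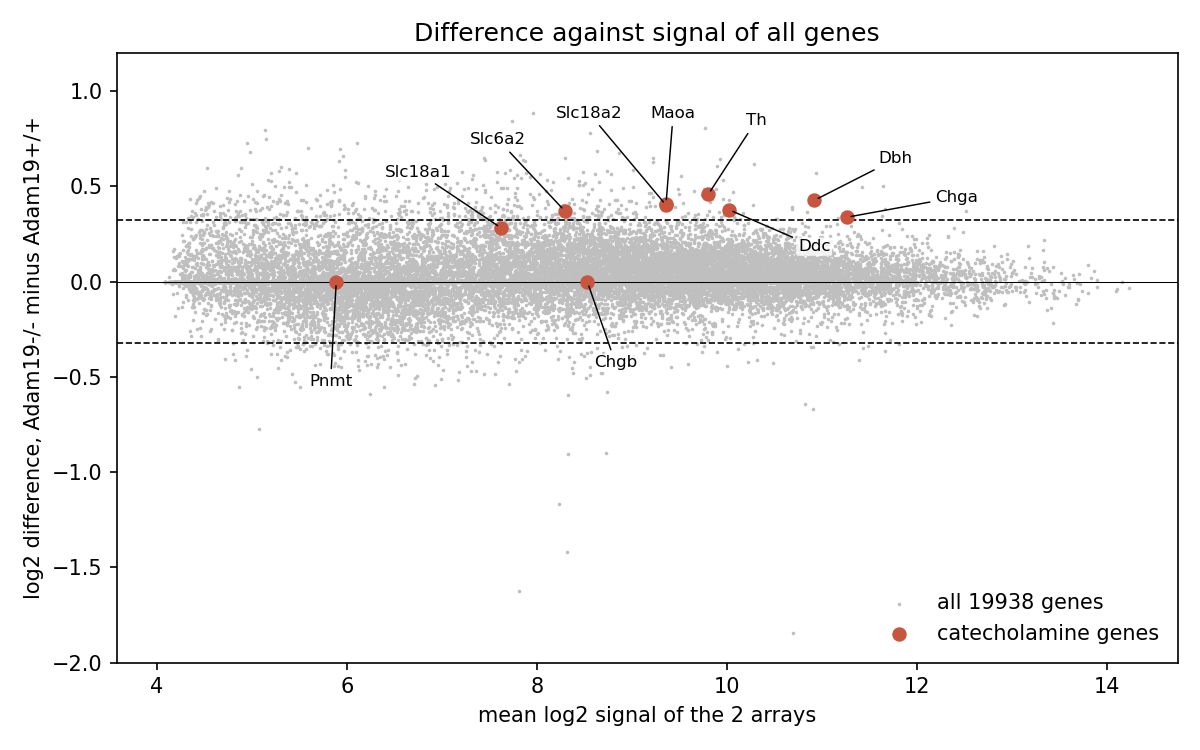
Log2 difference, Adam19-/- minus Adam19+/+ (vertical axis), against the mean log2 signal of the 2 arrays (horizontal axis) for all 19938 genes (grey) and the catecholamine genes (red), with dashed lines at an excess of 25% in either direction. Th, Dbh, Maoa, Slc18a2, Ddc, Slc6a2 and Chga lie above the upper line, Slc18a1 just under it, and Pnmt and Chgb on 0.

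The rest of the pathway was taken from 6 lists with 58 genes, of which 44 were measured. Higher values were found for 32 and lower values for 11, 1 was equal, the median difference was 0.11, and 4 were higher by at least 25%. None was lower by that much. Of all genes 51.7% were higher, 34.1% lower and 14.2% equal, while 2.72% were higher and 1.03% lower by at least 25%. The counts of the single lists below are to be read beside these shares. The lists, like the 10 genes, were drawn up with earlier results of these data known.

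The enzymes that make and recycle tetrahydrobiopterin, the cofactor of tyrosine hydroxylase, were higher by small amounts. All but 1 of the 7 were higher, the median was 0.11, and none passed the threshold. The largest differences were 0.17 for Spr, sepiapterin reductase, 0.16 for Pcbd2, 0.13 for Gch1 and 0.11 for Qdpr, which regenerates the cofactor. Gch1, the GTP cyclohydrolase that starts cofactor synthesis, was dim, at 6.36 and 6.50.

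Other enzymes of amine breakdown had a median of 0.04 over 6 measured genes, 4 higher and 2 lower. Maob, the second monoamine oxidase and also X-linked, was at 8.73 and 9.00, a difference of 0.27 against 0.41 for Maoa. The aldehyde dehydrogenase genes Aldh2 and Aldh3a2, which act after the oxidase, differed by 0.14 and 0.07. The sulfotransferase gene Sult1a1 differed by -0.05. The 4 measured transporters for other amines or outside noradrenergic neurons had a median of 0.16 with none past the threshold, namely Slc6a4 at 0.20, Slc22a2 at 0.18, Slc6a3 at 0.14 and Slc29a4 at 0.09. Slc6a4 and Slc6a3 encode the serotonin and dopamine transporters, and of these 4 genes Slc29a4 alone was above the floor.

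The 12 genes of granule cargo and processing had a median of 0.09, and 7 of them were higher, 4 lower and 1 equal. The threshold was passed by Cyb561, the membrane cytochrome that supplies the vesicle with electrons for dopamine beta-hydroxylase, and Pcsk1n, an inhibitor of prohormone convertase, both by 0.33. Cyb561 was at 8.64 and 8.97 and Pcsk1n at 10.70 and 11.03. Npy, the cotransmitter of sympathetic neurons, was at 9.78 and 10.07, a difference of 0.29, and Scg2 was higher by 0.25 at a dim signal. The granule genes were split as the chromogranins were, from -0.08 to 0.33.

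Transcription factors of the noradrenergic lineage had the highest median of the 6 lists, 0.21 over 8 measured genes, 7 higher and 1 lower. Gata2 was at 8.95 and 9.41, a difference of 0.46 or 1.38-fold, as large as that of Th. Gata3, a factor needed in sympathetic neurons, was at 9.80 and 10.15, a difference of 0.35 or 1.27-fold. Tfap2b was higher by 0.26 and Insm1 by 0.25. Phox2a, which binds the Dbh promoter, was at 9.70 and 9.88, a difference of 0.18. The list is not specific to noradrenergic cells. Genes in it are also expressed in other cell types, among them both GATA genes, Gata2 in endothelium and blood cells. The 7 measured adrenergic and dopamine receptor genes were all below the floor and had a median of 0.05, with Adra2c at 0.16, Drd3 at -0.14, Drd5 at 0.07 and Adra1b at 0.05.

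**Figure D3:**
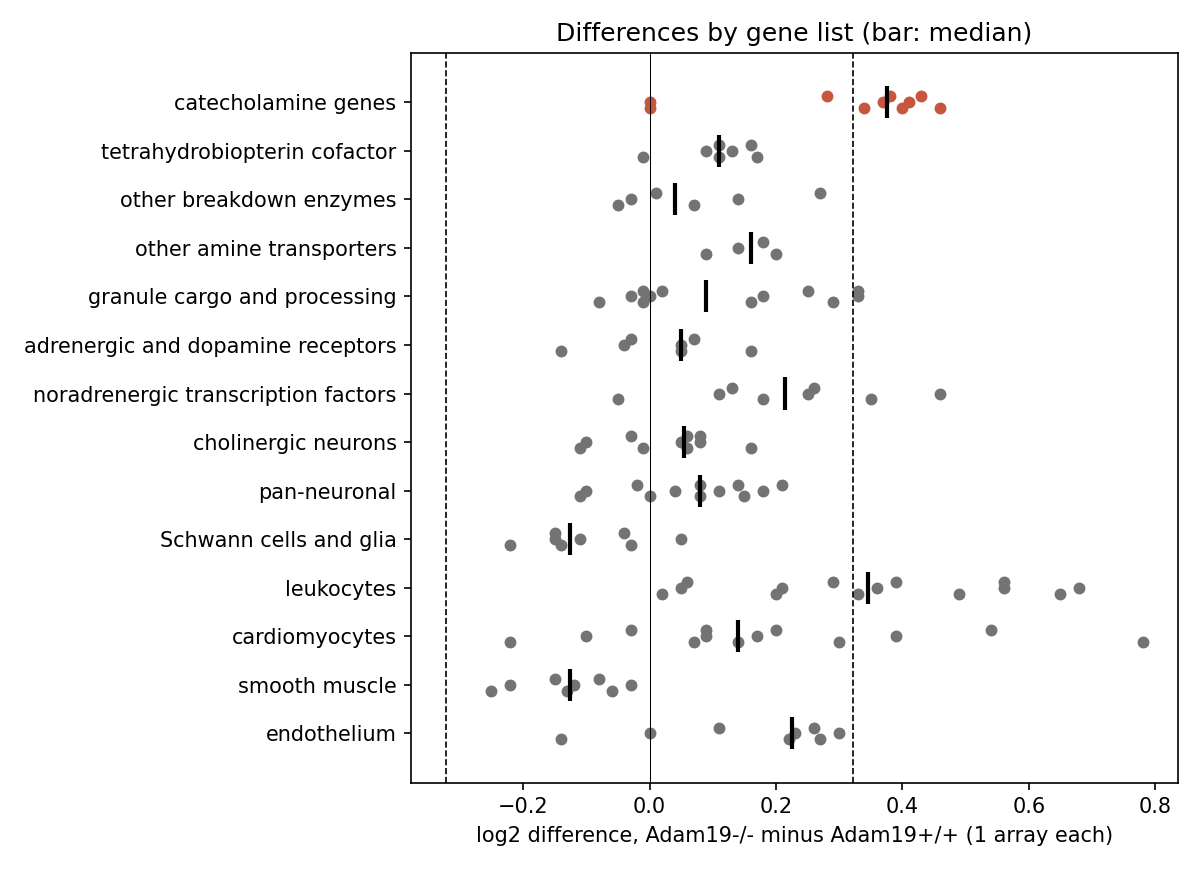
Log2 difference, Adam19-/- minus Adam19+/+ (horizontal axis), for each measured gene of the catecholamine genes (red) and of the pathway and cell type lists (grey); bars are medians and dashed lines mark an excess of 25%. The catecholamine genes had a median of 0.37, against 0.08 for pan-neuronal and 0.05 for cholinergic genes, and of the grey lists the leukocyte markers had the highest median, 0.35.

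The difference in catecholamine genes was set beside that of neurons in general. The 12 pan-neuronal markers had a median of 0.08, with 9 higher, 3 lower and none past the threshold, and their highest was Stmn3 at 0.21. Tubb3, neuronal beta-tubulin, was higher by 0.18 and Elavl3, a neuronal RNA-binding protein, by 0.15. All 8 higher catecholamine genes exceeded the highest of these markers. After the pan-neuronal median was subtracted, Th was at 0.38, Dbh at 0.35, Maoa at 0.33, Slc18a2 at 0.32, Ddc at 0.30, Slc6a2 at 0.29, Chga at 0.26 and Slc18a1 at 0.20, while Pnmt and Chgb were both at -0.08. The 10 cholinergic genes had a median of 0.05, 6 higher and 4 lower. Chrna7 was at 0.16, Chat, the enzyme of acetylcholine synthesis, at -0.11 and Chrna3 at -0.10. Chat, Slc5a7 and Ache, all in this list, stayed below the floor on both arrays. The Chrna and Chrnb genes in it encode nicotinic receptors, which noradrenergic cells can express too. The list is therefore not specific to cholinergic neurons, and its median does not stand for a separate cell type. Whether more cells expressed the catecholamine genes or each cell held more of their RNA cannot be told apart in sorted bulk RNA.

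Markers of other cells differed between the 2 samples too. For comparison with the counts below, 51.7% of all genes were higher and 34.1% lower, and 2.72% were higher by at least 25%. All 14 leukocyte markers were higher, 8 of them past the threshold of 25%, with Laptm5 at 0.68, C1qb at 0.65 and Fcer1g at 0.56, and their summed linear signal was 2412 in Adam19+/+ and 3200 in Adam19-/- cells. Of 13 cardiomyocyte markers 10 were higher and 3 lower, from -0.22 to 0.78, with a median of 0.14. The largest differences were Myl7 at 0.78, Pln at 0.54 and Myh6 at 0.39, and the summed signals were 10339 and 11034. Of 8 endothelial markers 6 were higher, 1 was lower, at -0.14, and 1 was equal. They were led by Ramp2 at 0.30, Pecam1 at 0.27 and Cdh5 at 0.26, with sums of 2904 and 3299. Glial markers were lower in 7 of 8 cases, with Dhh at -0.22, Fabp7 and Mbp both at -0.15, and sums of 17993 and 16536. All 8 smooth muscle markers were lower, with Lmod1 at -0.25, Cald1 at -0.22 and Tagln at -0.15, and sums of 31315 and 28771. The 3 measured Y-linked genes were lower, Eif2s3y by 3.08-fold, Uty by 2.67-fold and Kdm5d by 2.25-fold, with sums of 1368 and 524, while Xist was at 11.25 and 11.14. No marker had a signal of 0, since the lowest signal on the arrays was 4.09. The part of these differences in those of the catecholamine genes was not tested.

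Ddc and Pnmt lie on chromosome 11 with Adam19, and no catecholamine gene lies within 20 Mb of it.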

How the data were processed

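The data were log2 signals of 28853 transcript clusters, deposited by the authors in 1 table with a column per array (Affymetrix Mouse Gene 1.0 ST, per the series' design text). The sources used here do not give the background correction, normalisation or genome build. The base is read from the values, whose highest, 14.52, equals a linear signal of 23484 if log2. Gene names came from the platform's 2016 annotation, updated by Entrez identifier with RefSeq symbols (GRCm38.p6). Of the clusters, 21789 had 1 gene symbol, and a gene's brightest stood for it. Values were not normalised again. The threshold of 25% is 1.25-fold. The precision is limited by 1 array per genotype, so no p-value was computed. The rule for named genes took all 10 catecholamine genes, the 4 largest absolute differences of each pathway list, the 3 largest of each marker list, and Adam19. Phox2a and Xist were named outside it, after their values were seen. The genes and lists were chosen with earlier results of these data known, and listed genes without a value are not analysed here. Simulated data with known differences and no noise checked the reduction to 1 value per gene, the counts past the threshold and the quantile normalisation. The other steps, among them the motif search, were not checked in this way. Alternatives are given in the closing section. Python 3.11.15, numpy 2.4.6, pandas 2.3.3 and matplotlib 3.10.9 were used.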

Additional observations from a re-analysis of the deposited data

How the results depend on the processing

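The differences of the 10 genes were recomputed after quantile normalisation, after subtraction of the median difference of all genes, after adding 32 to the linear signal and with the mean of all clusters of a gene. In all 40 cases the value moved by less than 0.07, the median gap between clusters of a gene, and the 8 higher genes stayed between 0.24 and 0.46. The last of these settings could not change them, since each has 1 cluster. Among genes above the 75th percentile of signal, 9.76, there were 4 catecholamine genes, and 4 were higher and 0 lower. The share of higher genes among all genes above that percentile is not given here. The number of higher genes was 9 in place of 8 after quantile normalisation, with Pnmt at 0.02 and Chgb at -0.05. The number of lower genes was 2 in place of 1 after subtraction of the median of all genes or of the pan-neuronal markers, because Pnmt then fell below 0. At an excess of 50% 0 genes in place of 7 were counted. Subtraction of the pan-neuronal median, chosen after seeing the data, left 4 genes past the threshold of 25% and a median of 0.30. The share of all genes past the threshold after this subtraction is not given here. Of 56 recomputed list medians 55 moved by less than 0.07, and that of Y-linked genes and Xist went from -1.29 to -1.17 with 32 added. No paired analysis was possible because each genotype had 1 array, and no replicate could be left out.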

Other observations

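Among the genes of the catecholamine lists, Pcsk1, a prohormone convertase of neuroendocrine granules, was at 7.98 on both arrays with identical deposited values, as Pnmt was. Penk, the precursor of enkephalins, which chromaffin cells and some sympathetic neurons store with catecholamines, was at 11.89 and 12.08, a difference of 0.18. The galanin gene Gal differed by 0.16, and Vgf, whose product enters the same granules, by -0.01. Scg3 and Scg5 differed by -0.03 and -0.08. Among the Chg and Scg genes measured here and Vgf, Chga and Scg2 were higher, and Chgb, Scg3, Scg5 and Vgf were not. Scg2, at 0.25, was below the floor and under the threshold of 25%. Pcsk1n, given above with a difference of 0.33, is not counted in this comparison. These genes were named after their values were seen, and no test of a difference between them could be made.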
